A study of Mus musculus with 24 samples.

Results

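The 9 genes described here encode the enzymes that store fatty acids as triglyceride and the lipases that release them again: Gpam, Agpat2, Lpin1, Dgat1 and Dgat2 for synthesis, and Pnpla2, Abhd5, Lipe and Mgll for lipolysis. They were taken by name, as every probe on the array whose gene name or accession matched 1 of the 9 symbols, which gave 21 probes. Of these, 19 probes, for 8 of the 9 genes, passed the limit on dim signals, as did 15958 probes for 10891 genes on the whole array; the probe of Gpam and 1 of the 3 probes of Mgll were too dim.

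The arrays measured RNA of the gastrocnemius, a mixed calf muscle, from male C57BL/6N mice that were fed 1 of 3 diets for 8 weeks from the age of 3 months. The control diet, cHF, was a high-fat diet made with corn oil, in which lipids were 35% of the weight. In cHF+F, a concentrate of n-3 LC-PUFA took the place of 15% of these lipids, and in cHF+ROSI the control diet carried rosiglitazone, at 10 mg in each kg. Rosiglitazone is an anti-diabetic drug that activates PPARγ, a nuclear receptor that is most abundant in fat cells. Before dissection all 3 groups went without food for 10 hours and were given Chow, a low-fat diet, for the following night. No group shows the fasted muscle, the muscle during high-fat feeding or mice kept on Chow throughout. Each group had 8 mice, and each of the 24 arrays held the RNA of 1 mouse in the Cy5 channel and a common pool in the Cy3 channel, which also contained mice on a higher dose of the drug. Each value is the log2 ratio of mouse over pool, so that 0 is the level of the pool, and levels of different genes are not compared.

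Triglyceride is built on a glycerol backbone. Gpam adds the first fatty acid to glycerol-3-phosphate, Agpat2 adds the next, Lpin1 removes the phosphate to give diacylglycerol, and Dgat1 or Dgat2 adds the last fatty acid. The stored fat is broken down in the reverse order: adipose triglyceride lipase (Pnpla2), switched on by its co-activator Abhd5, removes the first fatty acid, hormone-sensitive lipase (Lipe) the next, and monoacylglycerol lipase (Mgll) the last. Muscle fibres hold small droplets of triglyceride and use all of these steps, whereas the enzymes are far more abundant in fat cells, and a dissected muscle carries some fat tissue between its fibres. For this reason each gene was also set against Adipoq, which encodes adiponectin, a hormone made by fat cells. In bulk RNA, fewer cells of a type and less RNA per cell cannot be told apart.

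All 10 listed muscle markers were bright enough to be compared. The brightest probe of each was well above background in Cy5 on all 24 arrays. Of 12 listed adipocyte markers 10 were bright enough, and the fat cell gene Adrb3 and Adig were not. The mean of the 10 adipocyte markers ranged from -0.79 to 0.59 among the cHF mice, from -1.04 to 0.84 among the cHF+F mice and from -0.66 to 0.33 among the cHF+ROSI mice, so the 3 groups overlapped. The mean of the muscle markers had a median of 0.29 in cHF, 0.085 in cHF+F and 0.060 in cHF+ROSI, and that of 5 endothelial markers 0.14, -0.055 and -0.079. The mean of the 4 measured liver markers had a median of -0.89, -0.69 and 0.22 and reached 1.48 in cHF+ROSI; the part of these shifts in the diet differences was not tested. In Cy5, 30.4% to 61.3% of the spots were well above background on 23 arrays and 91.1% on that of cHF+ROSI mouse 4. Slides 1 to 3 held most of the dimmer arrays, and the values that moved most without them are given below the diet comparisons and beside the slopes. Each of 8 slides held 1 array of each diet, and mice with the same number shared a slide. A diet was always at the same place, so that place and diet cannot be told apart.

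Between the diets the members differed little: in cHF+F, Lpin1 was at 1.19-fold of the cHF level, Mgll at 0.846-fold and Dgat2 at 0.791-fold, while in cHF+ROSI no member was beyond 0.864-fold (Dgat2) or 1.05-fold (Agpat2). None of these differences passed the test, nor did that of any other probe: limma with Benjamini-Hochberg adjustment called 0% of the 15958 probes for cHF+F versus cHF, 0% for cHF+ROSI versus cHF and 0% for cHF+F versus cHF+ROSI, at an adjusted p under 0.05. Without adjustment, 6.87%, 4.71% and 6.65% of the probes had a p under 0.05 in the same order, which is the background for the members. Of the 8 measured members, 3 had such a p in cHF+F versus cHF (Lpin1, Mgll and Dgat2), 0 in cHF+ROSI versus cHF and 1 (Lpin1) in cHF+F versus cHF+ROSI. The median difference of the members was -0.095 in cHF+F versus cHF, beside 0.00049 over all probes, and -0.077 beside -0.0082 in cHF+ROSI versus cHF. By the methods' t-test, on the same values, 0, 0 and 1 members had a p up to 0.05 in these 3 comparisons, the 1 being Lpin1. These tests left out the slide that mice of different diets shared. With the slide in the model, limma adjusted p in cHF+F versus cHF was 0.232 (Lpin1), 0.342 (Mgll) and 0.298 (Dgat2). For Lpin1 in cHF+F versus cHF+ROSI it was 0.123. Since both comparisons with cHF use the same 8 control mice, their values are given side by side and not set against each other.

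**Figure D1:**
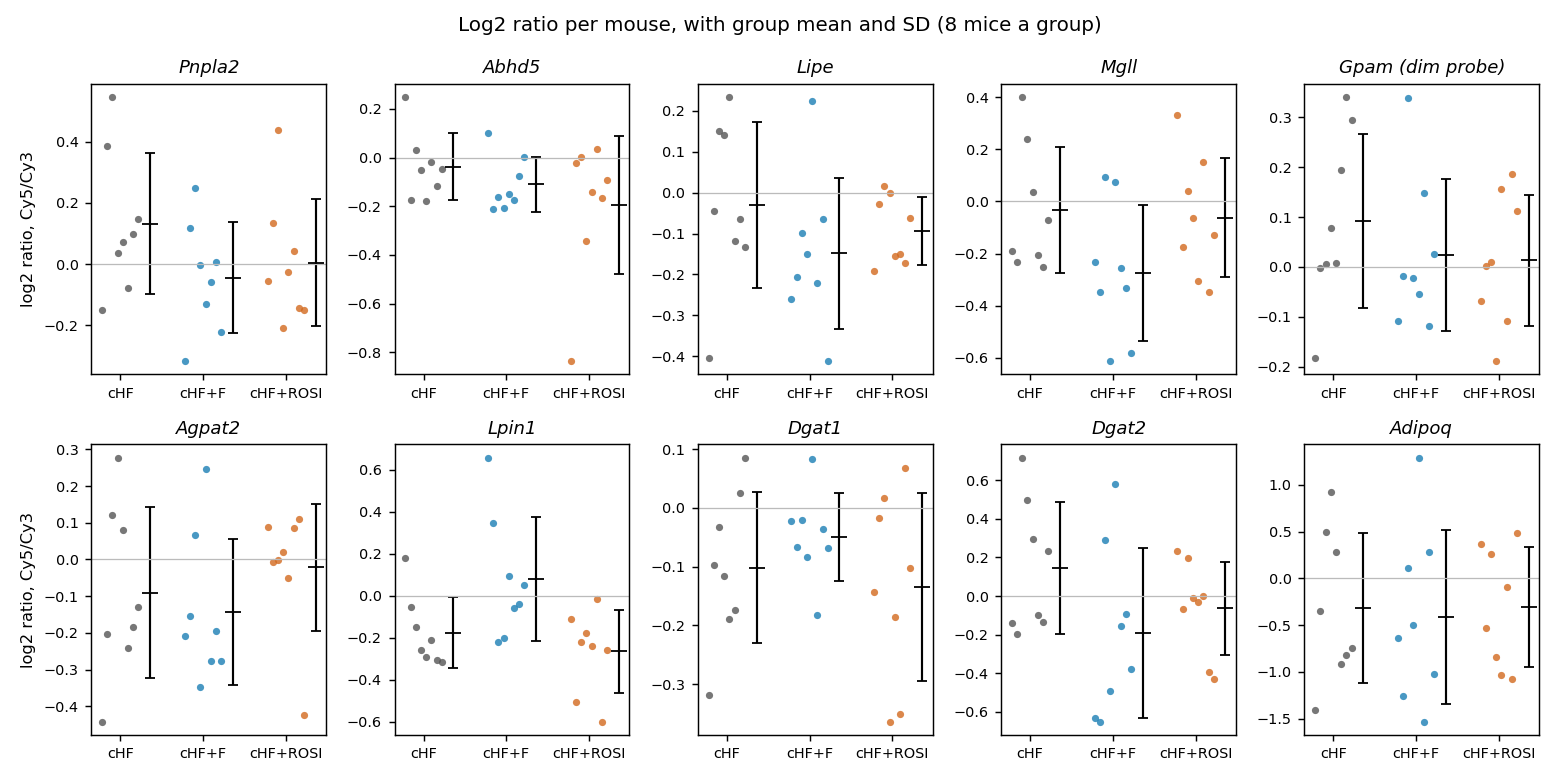
Log2 ratio of mouse over pool for the 9 genes and Adipoq, with 1 point per mouse (8 per diet) and the group mean and SD as a black cross bar; each panel has its own scale. The diets overlapped in every panel, Lpin1 lay highest in cHF+F (mean 0.079) and Adipoq spread from -1.53 to 1.29.

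Of the lipolytic genes, Pnpla2, the lipase that starts the breakdown, was read by a probe at chr7:141311351-141311410 (mouse build mm8). Its log2 ratio ranged in cHF from -0.15 to 0.55 with a median of 0.084, in cHF+F from -0.32 to 0.25 with a median of -0.030, and in cHF+ROSI from -0.21 to 0.44 with a median of -0.039. The groups overlapped, with mouse 3 the highest in each diet, all on slide 3. In cHF+F, 7 of 8 mice lay below the cHF mean. The difference was -0.18 ± 0.098 (SE; n = 8 per group; limma adjusted p = 0.815) for cHF+F and -0.13 ± 0.098 (adjusted p = 0.997) for cHF+ROSI. On 7 of 8 slides the cHF+F mouse was lower than the cHF mouse, by up to 0.37, and with the slide in the model the adjusted p was 0.195. A second probe of Pnpla2 gave a smaller difference for cHF+F, -0.063 ± 0.078.

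Abhd5, the protein that activates this lipase, was read at chr9:122229563-122229622. It ranged from -0.18 to 0.25 in cHF with a median of -0.051, from -0.21 to 0.10 in cHF+F with a median of -0.16, and from -0.84 to 0.035 in cHF+ROSI with a median of -0.12. The lowest value, -0.84, belonged to cHF+ROSI mouse 1 and stood apart from the next lowest of its group, -0.34; the second probe of Abhd5 was also lowest of its group in that mouse, at -0.17. The difference of cHF+ROSI from cHF was -0.16 ± 0.092 (limma adjusted p = 0.997) and became -0.065 without that mouse. For cHF+F it was -0.072 ± 0.092 (adjusted p = 0.961), and the second probe gave 0.017 ± 0.059, of the opposite sign.

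Lipe, which encodes hormone-sensitive lipase, was read at chr7:25089715-25091968, and its values ran in cHF from -0.40 to 0.23 with a median of -0.054, in cHF+F from -0.41 to 0.22 with a median of -0.18, and in cHF+ROSI from -0.19 to 0.016 with a median of -0.11. The cHF+ROSI mice were the least spread, with an SD of 0.083 beside 0.20 in cHF and 0.18 in cHF+F. The difference from cHF was -0.12 ± 0.081 (limma adjusted p = 0.876) in cHF+F and -0.063 ± 0.081 (adjusted p = 0.997) in cHF+ROSI. Its second probe gave -0.028 and 0.031, the latter of the opposite sign.

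Mgll, which completes lipolysis and also breaks down a signalling lipid, was read at chr6:88793933-88793992. It ranged from -0.25 to 0.40 in cHF with a median of -0.13, from -0.61 to 0.093 in cHF+F with a median of -0.29, and from -0.35 to 0.33 in cHF+ROSI with a median of -0.096. In cHF+F, 6 of 8 mice were below the cHF mean, and on 7 of 8 slides the cHF+F mouse was the lower one, although the groups overlapped. The difference was -0.24 ± 0.11, or 0.846-fold (unadjusted p = 0.0443, adjusted p = 0.711 by limma), and the second bright probe gave -0.25 ± 0.081 (unadjusted p = 0.00486, adjusted p = 0.475 by limma). The cHF+ROSI mice differed from cHF by -0.028 ± 0.11 (limma adjusted p = 0.997). Against them the cHF+F mice differed by -0.21 ± 0.11 (limma adjusted p = 0.772), and by -0.23 ± 0.081 with the second probe (unadjusted p = 0.00949, adjusted p = 0.633 by limma).

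Among the genes of synthesis, Gpam was read by 1 probe, at chr19:55124163-55124222, whose mean signal was 2.90 times the background in Cy5 and 1.92 times in Cy3. It was well above background in Cy5 on 22 of 24 arrays. Its values, which overlapped between all diets, ran from -0.18 to 0.34 in cHF, from -0.12 to 0.34 in cHF+F and from -0.19 to 0.19 in cHF+ROSI. With all probes tested, whatever their brightness, it differed from cHF by -0.068 ± 0.073 in cHF+F (limma adjusted p = 0.847) and by -0.079 ± 0.073 in cHF+ROSI (adjusted p = 0.801).

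Agpat2, read at chr2:26418117-26418176, ranged from -0.44 to 0.28 in cHF with a median of -0.16, from -0.35 to 0.25 in cHF+F with a median of -0.20, and from -0.43 to 0.11 in cHF+ROSI with a median of 0.0099. The cHF+ROSI mouse 8, at -0.43, stood apart from the other 7, the next of which was at -0.050. The difference from cHF was -0.053 ± 0.096 (limma adjusted p = 0.980) for cHF+F, with a range from -0.11 without cHF+F mouse 5 to -0.00018 without cHF mouse 4, and 0.069 ± 0.096 (adjusted p = 0.997) for cHF+ROSI, or 0.13 without that mouse. The value for cHF+ROSI also changed sign under other ways of scaling. The second probe gave -0.20 ± 0.083 (unadjusted p = 0.0234, adjusted p = 0.639 by limma) for cHF+F and -0.079 for cHF+ROSI, the latter of the opposite sign.

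Lpin1, the phosphatidate phosphatase that also acts in the nucleus on genes of fatty acid oxidation, was the member with the largest difference toward higher values. Read at chr12:16561989-16562047, it ranged in cHF from -0.31 to 0.18 with a median of -0.23, in cHF+F from -0.22 to 0.66 with a median of 0.0049, and in cHF+ROSI from -0.60 to -0.013 with a median of -0.23. All 8 cHF+F mice lay above the cHF+ROSI mean and 6 of 8 above the cHF mean, but the ranges overlapped. The cHF+F mice exceeded the cHF mice by 0.25 ± 0.11, or 1.19-fold (unadjusted p = 0.0241, adjusted p = 0.639 by limma), and the cHF+ROSI mice by 0.34 ± 0.11, or 1.27-fold (unadjusted p = 0.0032, adjusted p = 0.558 by limma). The other 3 probes of Lpin1 gave 0.30, 0.25 and 0.26 for cHF+F versus cHF. On 7 of 8 slides the cHF+F mouse was higher than the cHF mouse by each of the 4 probes. It was higher than the cHF+ROSI mouse on 6 of 8 slides, and on 5 of 8 by each of the other 3 probes. Without cHF+F mouse 1, which had the highest value, the difference from cHF was 0.17. The cHF+ROSI mice differed from cHF by -0.090 ± 0.11 (limma adjusted p = 0.997).

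**Figure D2:**
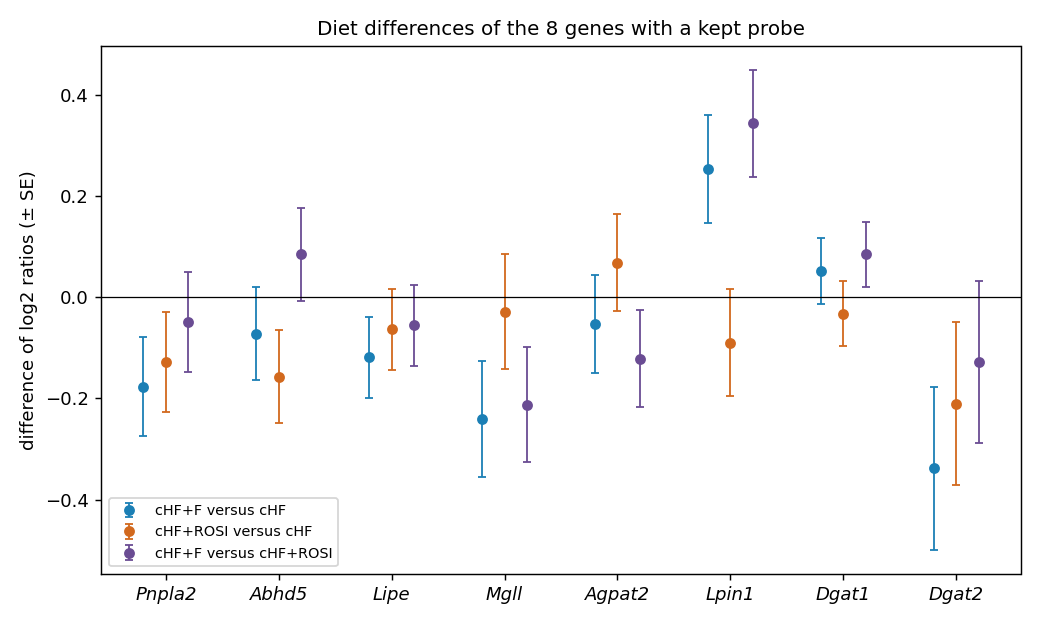
Differences of the log2 ratio between diets for the 8 genes with a bright enough probe; points are the limma estimates and bars their SE (8 mice per diet). Lpin1 in cHF+F lies farthest above 0 (0.25 against cHF, 0.34 against cHF+ROSI) and Dgat2 in cHF+F farthest below (-0.34 against cHF); no difference was called.

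Dgat1 and Dgat2 encode unrelated enzymes that catalyse the same last step. Dgat1, read at chr15:76329953-76330099, varied least of the members: it ranged from -0.32 to 0.085 in cHF, from -0.18 to 0.083 in cHF+F and from -0.36 to 0.067 in cHF+ROSI, with medians of -0.11, -0.051 and -0.12. Its difference from cHF was 0.052 ± 0.065 (limma adjusted p = 0.958) in cHF+F and -0.033 ± 0.065 (adjusted p = 0.997) in cHF+ROSI, and its second probe gave -0.055 for cHF+F. Dgat2, read at chr7:99028897-99028956, varied most: it ranged from -0.20 to 0.72 in cHF with a median of 0.069, from -0.65 to 0.58 in cHF+F with a median of -0.27, and from -0.43 to 0.23 in cHF+ROSI with a median of -0.020. The cHF+F mouse 5, at 0.58, was the highest of its group, while 6 of 8 cHF+F mice lay below the cHF mean. The difference was -0.34 ± 0.16, or 0.791-fold (unadjusted p = 0.0447, adjusted p = 0.712 by limma) for cHF+F and -0.21 ± 0.16 (adjusted p = 0.997) for cHF+ROSI. Both other probes of Dgat2 gave smaller differences for cHF+F, -0.14 and -0.13. Between cHF+F and cHF+ROSI the difference was -0.13 ± 0.16 (limma adjusted p = 0.917).

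Without slides 1 to 3, with 5 mice left per diet, no member was called and several of the differences moved by over 1.5 times. For cHF+F versus cHF, Agpat2 was then at -0.13, Abhd5 at -0.040 and Dgat1 at 0.016. For cHF+ROSI versus cHF, Dgat2 was at -0.33, Lipe at -0.12, Dgat1 at -0.11, Mgll at -0.088 and Abhd5 at -0.059. Between cHF+F and cHF+ROSI, Lpin1 was at 0.23 in place of 0.34, Dgat1 at 0.13, Abhd5 at 0.019 and Lipe at -0.016. The differences of Lpin1 (0.24), Mgll (-0.29) and Dgat2 (-0.27) in cHF+F versus cHF moved by less than this.

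The spread between mice of 1 diet differed among the members. The SD within diets was 0.13 for Dgat1, below that of most probes, and 0.35 for Dgat2, above that of 96.8% of all probes, while the median over all probes was 0.15. For Adipoq it was 0.80, above 99.6% of all probes. Lipe (0.17), Abhd5 (0.19), Agpat2 (0.20), Pnpla2 (0.21), Lpin1 (0.23) and Mgll (0.24) lay between the values of Dgat1 and Dgat2. These SDs are on the scale of ratios to the pool and are not levels.

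Adipoq itself, read at chr16 by a single probe, ran from -1.53 in cHF+F mouse 6 to 1.29 in cHF+F mouse 5. Its medians were -0.54 in cHF, -0.57 in cHF+F and -0.31 in cHF+ROSI, with full overlap. Lipe, Mgll and Dgat2 rose with Adipoq from mouse to mouse. In a limma model with the diet as a term, 162 of 15957 other probes, or 1.02%, had a slope on Adipoq with an adjusted p under 0.05, and 0.99% had a positive one; of the 8 members, 3 had one, all positive. Over all 24 arrays the log2 slope had a median of 0.11 among the members and of 0.0015 among all probes.

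**Figure D3:**
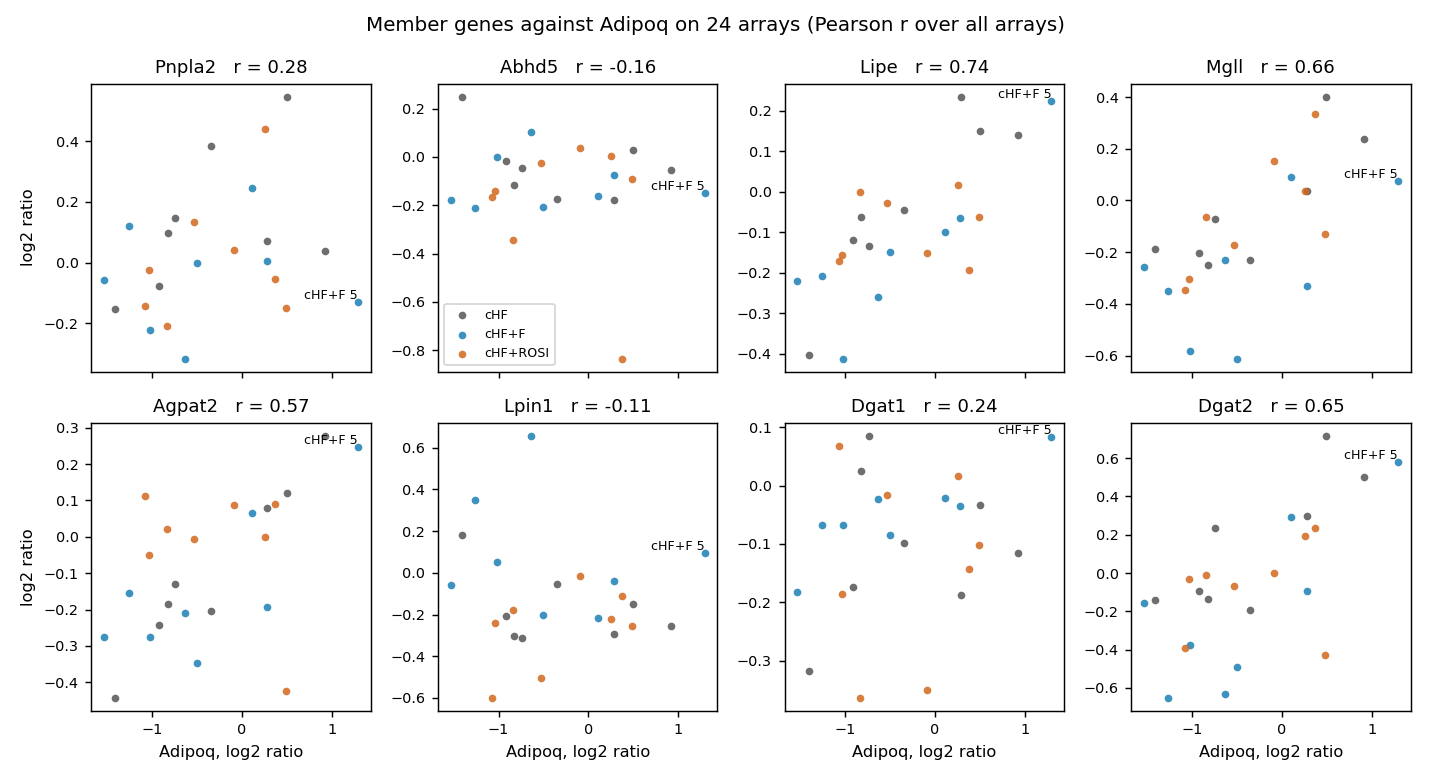
Log2 ratio of each member against that of Adipoq, with 1 point per mouse coloured by diet (24 arrays) and Pearson r over all of them. Lipe (r = 0.74), Mgll (0.66) and Dgat2 (0.65) climb from left to right, Abhd5 (-0.16) and Lpin1 (-0.11) do not, and the mouse farthest to the right is cHF+F mouse 5.

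For Lipe, the slope was 0.16 ± 0.032 (limma adjusted p = 0.00742), so that a doubling of Adipoq went with 1.12-fold Lipe. In the mouse with the highest Adipoq it was at 0.22, the second highest of the 24, and in the mouse with the lowest Adipoq at -0.22, the 21st. Pearson r was 0.74 (permutation p = 5e-05) and Spearman rho 0.71 (permutation p = 0.00032). Here and below, these permutations shuffled all 24 mice across diets and slides, and their p was not adjusted over the members. Without the 2 mice farthest from the median of Adipoq, cHF+F mouse 5 and cHF mouse 4, r was 0.63. With the slide means removed r was 0.77, and within the diets it was 0.90 in cHF (exact permutation p = 0.0026), 0.86 in cHF+F (exact p = 0.00613) and 0.13 in cHF+ROSI (exact p = 0.737). The second probe of Lipe had nearly the same slope, 0.16 ± 0.038 (limma adjusted p = 0.0306).

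Mgll had a slope of 0.21 ± 0.047 (limma adjusted p = 0.0162), or 1.16-fold per doubling of Adipoq, and its second bright probe one of 0.13 ± 0.037 (adjusted p = 0.122). It was at 0.075 in the mouse with the highest Adipoq and at -0.26 in the mouse with the lowest, ranks 6 and 18 of 24. Pearson r was 0.66 (permutation p = 0.00044), Spearman rho 0.68 (permutation p = 0.00037), and r was 0.62 without the 2 mice at the extremes and 0.68 with slide means removed. Within the diets r was 0.83 in cHF (exact p = 0.00977), 0.59 in cHF+F (exact p = 0.127) and 0.71 in cHF+ROSI (exact p = 0.0502).

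The steepest slope belonged to Dgat2, at 0.30 ± 0.066 (limma adjusted p = 0.016), or 1.23-fold per doubling of Adipoq. Its other probes had slopes of 0.23 ± 0.049 (adjusted p = 0.0115) and 0.13 ± 0.039 (adjusted p = 0.197). Dgat2 was at 0.58 in the mouse with the highest Adipoq, rank 2 of 24, and at -0.16 in that with the lowest, rank 17. Pearson r was 0.65 (permutation p = 0.00054), Spearman rho 0.61 (permutation p = 0.00176), and r was 0.51 without the 2 extreme mice and 0.53 with slide means removed. It was 0.81 in cHF (exact p = 0.0187), 0.77 in cHF+F (exact p = 0.0243) and 0.25 in cHF+ROSI (exact p = 0.52).

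These 3 calls rested on few mice. Without cHF+F mouse 5 none of the 3 was called, at slopes of 0.14 for Lipe (limma adjusted p = 0.125), 0.22 for Mgll (adjusted p = 0.0921) and 0.25 for Dgat2 (adjusted p = 0.237), and the number of probes called fell from 162 to 90. Mgll was also lost without cHF mouse 4, at an adjusted p of 0.0509 by limma. Without slides 1 to 3, with 15 mice left, the slopes were 0.15, 0.18 and 0.21 and none was called, while without slide 1 alone all 3 were. With the slide as a block, Lipe (0.13, limma adjusted p = 0.0182) and Mgll (0.21, adjusted p = 0.0238) were called and Dgat2 (0.21, adjusted p = 0.18) was not, among 266 probes. Against the mean of 7 other adipocyte markers in place of Adipoq, the slopes were 0.29 for Lipe (limma adjusted p = 0.061), 0.39 for Mgll (adjusted p = 0.091) and 0.51 for Dgat2 (adjusted p = 0.175). They are per log2 unit of that mean, which ran only from -0.73 to 0.75, and so are on another scale than the slopes on Adipoq. Pearson r with that mean was 0.65 for Lipe, 0.57 for Mgll and 0.53 for Dgat2. That mean held Car3, whose own slope on Adipoq was -0.076, and not Cidec or Plin1, which are also genes of the pathway.

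The other 5 measured members had no slope past the threshold. Agpat2 had a slope of 0.15 ± 0.045 (limma adjusted p = 0.19) and r = 0.57 (permutation p = 0.0041), which was 0.38 without the 2 extreme mice. Its r was 0.97 in cHF (exact p = 0.000422), 0.78 in cHF+F (exact p = 0.0225) and -0.41 in cHF+ROSI (exact p = 0.362), and without cHF+ROSI mouse 8 its slope was 0.18 and was called (limma adjusted p = 0.00317). It was also called with the processed signals of the scanner software, at 0.29 (limma adjusted p = 0.0257), and with median centring, at 0.22 (adjusted p = 0.0107), where the median slope of all probes was 0.13. Pnpla2 had 0.075 ± 0.052 (adjusted p = 0.918; 0.0071 without slides 1 to 3), Dgat1 0.043 ± 0.035 (adjusted p = 0.958; r within cHF+F 0.87, exact p = 0.00424), Lpin1 -0.025 ± 0.059 (adjusted p = 0.999) and Abhd5 -0.041 ± 0.050 (adjusted p = 0.994), the last 2 of which changed sign under other settings. Gpam, tested among all probes, had a slope of -0.028 ± 0.040. Whether the slopes differed between the diets was tested with 1 slope per diet: limma's F test called 0 of 15957 probes, and the smallest p of a member was that of Agpat2 (unadjusted p = 0.00253, adjusted p = 0.64), followed by Lipe (unadjusted p = 0.0431, adjusted p = 0.662).

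**Figure D4:**
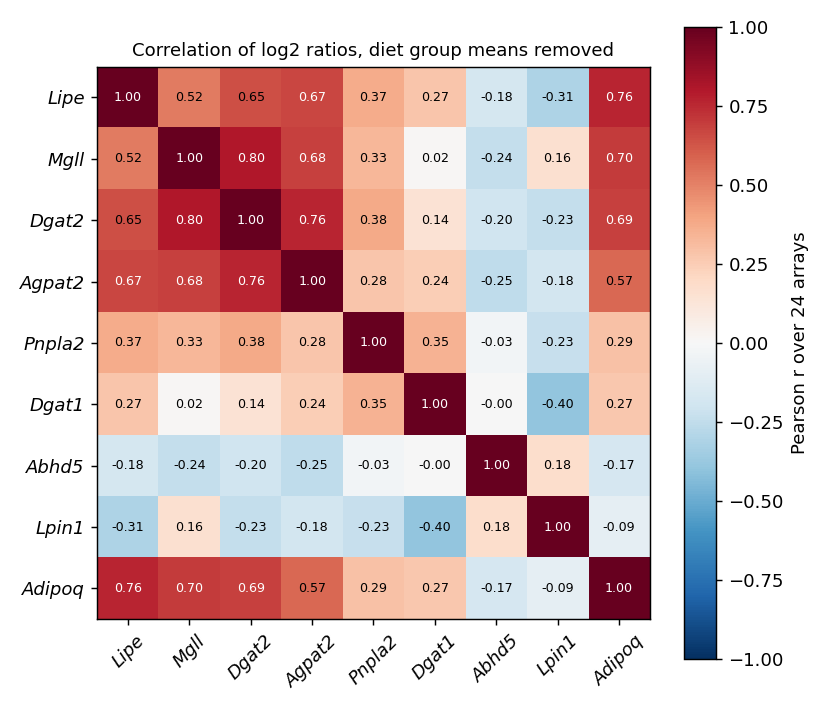
Pearson r between the log2 ratios of the members and Adipoq over the 24 arrays, after the mean of each diet, but not of each slide, was removed. Lipe, Mgll, Dgat2 and Agpat2 form a block with r between 0.52 and 0.80, whereas Pnpla2, Dgat1, Lpin1 and Abhd5 stand outside it.

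Among themselves, with the means of the diets removed, the 4 genes with the highest r with Adipoq also varied together. Mgll and Dgat2 had the highest r of all pairs, 0.80, followed by Agpat2 and Dgat2 at 0.76, and the lowest of the 6 pairs among Lipe, Mgll, Dgat2 and Agpat2 was 0.52 for Lipe and Mgll. Pnpla2 stayed at or below 0.38 with every other member, and its co-activator Abhd5 had r = -0.028 with it. Lpin1 was negative against Dgat1 (-0.40) and Lipe (-0.31). These values describe 24 arrays that share 1 reference pool, and the means of the slides were not removed from them. As the 4 genes were grouped by their r with Adipoq, part of their r with each other can follow from that choice.

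The genes across the whole array most like each member were found by the same measure, and as the highest of many they are a description. Adipoq was most like Cidec (r = 0.98), a protein of fat cell droplets. Prkar2b, a subunit of protein kinase A, Plin1, a droplet coat protein, and Slc1a5, a glutamine transporter, came next (0.96 each), before Phgdh, an enzyme of serine synthesis (0.95). Aifm2 was the gene most like both Mgll (r = 0.93) and Dgat2 (0.82). The gene most like Lipe was Npc2 (0.88), a lysosomal cholesterol carrier, and the others were Atp13a1 for Pnpla2 (0.85), Cpm for Abhd5 (0.87), Arpc1a for Agpat2 (0.84), Dok7 for Lpin1 (0.83) and Trafd1 for Dgat1 (0.85).

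The promoters of Adipoq and of those members with a slope on Adipoq for which a sequence was at hand, Lipe and Mgll, are shown as the 250 bases before the outermost start site, from RefSeq on build GRCm38.p6 and on the gene's own strand. Promoters were found for 7 of the 9 members in that table. Capitals mark 5 short motifs, searched on both strands. They were the hexamer bound by nuclear receptors (AGGTCA), the E-box (CACGTG), the CCAAT box, the GC box (GGGCGG) and the TATA box (TATAAA). The Adipoq window lies at chr16:23146286-23146535 on the plus strand, that of Lipe at chr7:25395988-25396237 on the minus strand and that of Mgll at chr6:88724162-88724411 on the plus strand.
Adipoq: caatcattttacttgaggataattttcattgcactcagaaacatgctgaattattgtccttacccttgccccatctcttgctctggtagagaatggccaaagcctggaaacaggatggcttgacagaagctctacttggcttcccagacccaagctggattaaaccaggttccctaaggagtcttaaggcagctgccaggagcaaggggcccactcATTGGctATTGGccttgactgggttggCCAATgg
Lipe: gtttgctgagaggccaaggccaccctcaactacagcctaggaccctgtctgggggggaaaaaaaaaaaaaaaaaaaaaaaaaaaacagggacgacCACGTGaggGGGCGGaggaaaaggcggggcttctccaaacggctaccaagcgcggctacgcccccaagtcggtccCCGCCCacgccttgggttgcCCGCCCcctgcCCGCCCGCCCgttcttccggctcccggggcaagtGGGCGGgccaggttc
Mgll: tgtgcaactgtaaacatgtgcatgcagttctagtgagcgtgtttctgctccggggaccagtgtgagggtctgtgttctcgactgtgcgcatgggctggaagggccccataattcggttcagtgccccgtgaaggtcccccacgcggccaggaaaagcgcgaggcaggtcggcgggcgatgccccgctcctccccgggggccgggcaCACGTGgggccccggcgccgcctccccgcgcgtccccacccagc
The outermost windows of Lipe and Mgll both held the E-box, which was in 1 of 2 windows of each gene. The window of Adipoq held the CCAAT box 3 times within the last 34 bases, a motif found in 33.8% of 32536 promoter windows of this length. That of Lipe held 1 E-box and 6 GC boxes, 2 of which overlap, and that of Mgll 1 E-box, 44 bases before the start; an E-box was in 6.04% and a GC box in 33.0% of all windows. AGGTCA, in 14.0% of all windows, was in none of the 3 shown and in those of Abhd5, Lpin1 and 1 of 2 of Gpam.

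The wider pathway was covered by a list of 36 other genes, of which 31 were bright enough; Mogat1, Mogat2, Gk, Adrb3 and Pde3b were not. No gene of this list was called between diets, and the shares with an unadjusted p under 0.05 were near those of all probes (6.87%, 4.71% and 6.65%), so the genes named next are a description. In cHF+F versus cHF, 3 of 31 had an unadjusted p under 0.05, all lower in cHF+F: Plin5, the droplet coat protein of muscle, by -0.51 ± 0.15 (limma adjusted p = 0.435), Acsl1, which activates fatty acids, by -0.30 ± 0.10 (adjusted p = 0.527), and Aqp7, a glycerol channel, by -0.17 ± 0.063 (adjusted p = 0.546). In cHF+ROSI versus cHF, 1 of 31 had, the coat protein Plin4 at -0.33 ± 0.12 (limma adjusted p = 0.997); the next smallest p-values were those of Acsl1 (-0.21) and Bscl2 (0.093). In cHF+F versus cHF+ROSI, 3 of 31 had: Plin2 at -0.32 ± 0.11 (limma adjusted p = 0.633), Gpd1, which makes glycerol-3-phosphate, at 0.30 ± 0.11 (adjusted p = 0.636), higher on all 8 slides but on 4 of 8 by its second probe (0.086), and Aqp7 at -0.16 ± 0.063 (adjusted p = 0.665). The median difference of the 31 genes was -0.021, -0.014 and 0.0063 in the 3 comparisons.

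**Figure D5:**
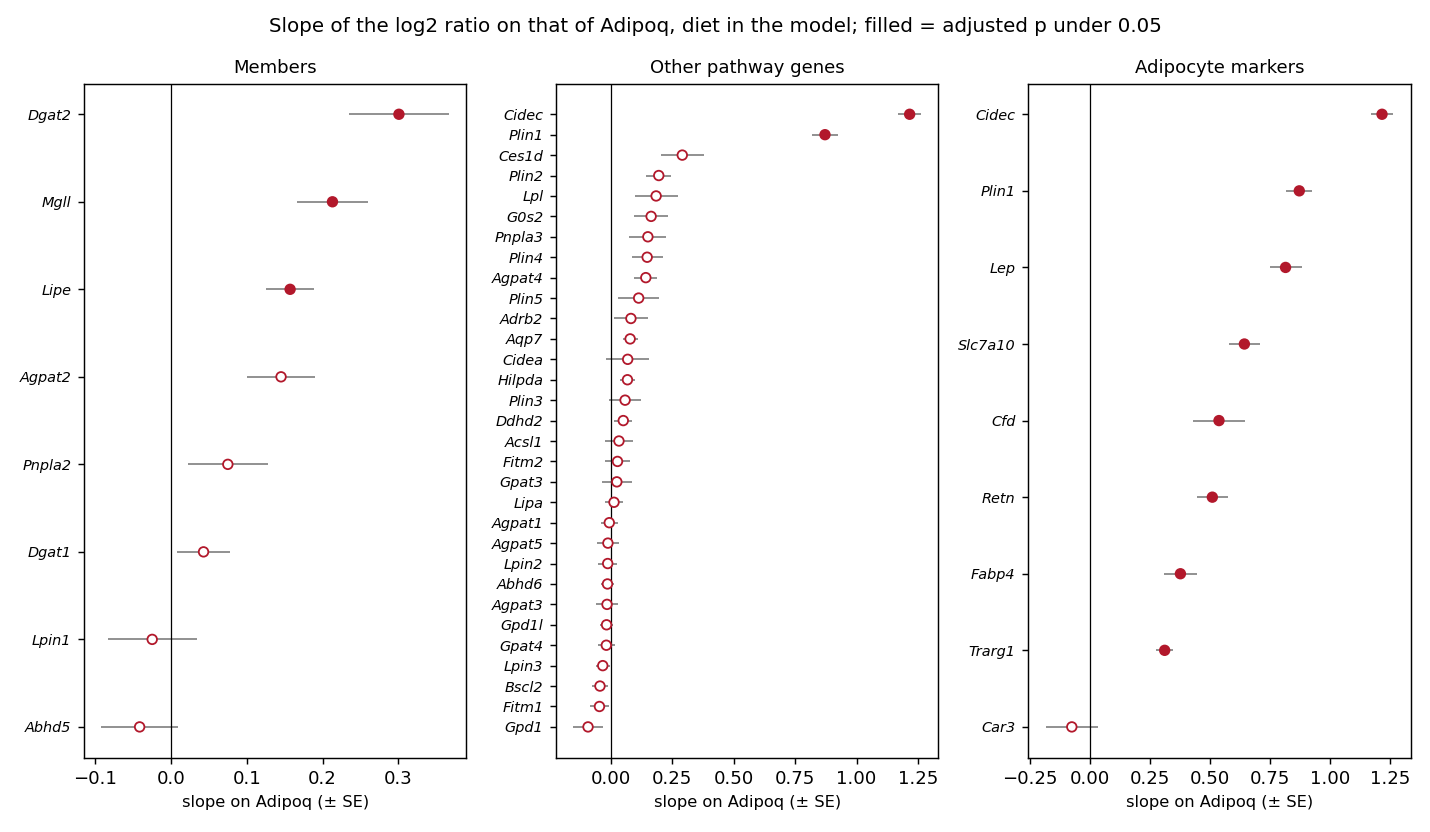
Slope of the log2 ratio on that of Adipoq with its SE, for the members, the other pathway genes and the adipocyte markers; filled points had a limma adjusted p under 0.05 over all probes, and each panel has its own scale. The members reach 0.30 (Dgat2), while Plin1 (0.87) and Cidec (1.22), which belong to both other lists, lie far to the right.

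Against Adipoq, 2 of the 31 pathway genes had a slope past the threshold, both positive: Cidec at 1.22 ± 0.046 (limma adjusted p = 1.23e-15) and Plin1 at 0.87 ± 0.054 (adjusted p = 3.9e-11). Both are also on the list of adipocyte markers, where 8 of the 9 markers other than Adipoq had one and Car3 had -0.076 ± 0.11, or 0.17 ± 0.12 by its second probe. Next by r with the means of the diets removed were Plin2 (r = 0.63, limma adjusted p of the slope 0.063), Ces1d, a triglyceride hydrolase (0.56, 0.176), and Agpat4 (0.55, 0.244). With the slide as a block, Plin2 (slope 0.19, limma adjusted p = 0.0495) and Ces1d (0.31, adjusted p = 0.0362) were also called. So was Aqp7, by its second probe only (0.10, limma adjusted p = 0.0384). Plin2 was called against the mean of the 7 other adipocyte markers too (0.44, limma adjusted p = 0.0215). The slopes of Lipe, Mgll and Dgat2 ran from 0.16 to 0.30. Those of these 8 adipocyte markers ran, by their brightest probes, from 0.31 ± 0.036 for Trarg1 to 1.22 for Cidec. Another probe of Fabp4 had 0.26, and Car3, at -0.076, lay below both ranges by its brightest probe. Both ranges hold only genes taken for a slope past the threshold, and no test compared these slopes. The mean of the muscle markers had r = 0.30 with Adipoq, that of the macrophage markers 0.29 and that of the endothelial markers 0.17; their part in the slopes was not tested. With Adipoq as a covariate, the differences of cHF+F from cHF were -0.22 ± 0.086 for Mgll (limma adjusted p = 0.595), -0.31 ± 0.12 for Dgat2 (adjusted p = 0.595) and 0.25 ± 0.11 for Lpin1 (adjusted p = 0.654), close to those without it.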

How the data were processed

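Per the file headers, the deposited scanner files hold spot and background intensity on a linear scale for Cy5 and Cy3, quantified by Feature Extraction 10.5.1.1 (the submitters' processing notes give 10.5.5.1), with coordinates on mouse build mm8. The same files hold the intensity that the software had background-subtracted and dye-normalized, which was an alternative. The authors also deposited a table with 20721 rows of log2 values, in which Cy5 had been scaled by use of Cy3 and dim spots left out. Its scale was checked against the scanner files (slope of 1.06 on the log2 Cy5 signal, column medians of 8.97 to 9.00 after averaging of probes), and how it was centred is not given in the sources used here. Of its columns 16 were used, and 8 that match no group of the series were not.

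Of 45018 spots, 43379 were not controls, for 41174 probes. Median signals were corrected by normexp (offset 50) and loess (span 0.3) was applied within each array to the log2 ratio of mouse over pool. Spots marked by the software as outliers were missing, spots of a probe were averaged, at least 4 arrays per group were required, and a mean signal of at least 2 times background in both channels left 15958 probes. Of these 12577 were named by accession, 2544 by the file and 837 not at all. No spot of a member was marked or saturated. Each gene was represented by its brightest probe.

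Groups were compared with limma 3.58.1 in R 4.3.3 (1 model of 3 diets, no block; 2-sided) and Benjamini-Hochberg adjustment over all probes, and slopes on Adipoq likewise, with diet as a term. Permutations used 100000 orders of the 24 mice, regardless of diet and slide, or all orders for the 8 mice of a diet. No permutation p was adjusted over the members. The limma fits of diet differences and slopes were checked on simulated data with independent noise on each array. That check does not cover arrays of a slide that deviate together. The number of arrays limits the precision. The replicate number marks a shared slide in the file headers: arrays of 1 slide deviated together in 18 of 24 pairs (r over 0.1; median 0.25), and the slide was a block in an alternative. The members, gene lists and tests were chosen with earlier results of these data known. The text names all members, the pathway genes called or with the 3 smallest p per diet comparison and the 5 highest r, and the genes most like each member. Promoter sequences are from RefSeq. Alternatives were the background correction, scaling, brightness filter, weights, block, left-out arrays, t-test, authors' table, other markers and probes; leaving out slide 1 or slides 1 to 3 and fitting 1 slope per diet were chosen after seeing the data.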

Additional observations from a re-analysis of the deposited data

Results flagged for a closer look

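In 2 of 27 sets of 8 mice (the 8 measured members and Adipoq in 3 diets), 1 mouse lay apart by Dixon's criterion, which sets the gap to the nearest mouse against the range of the group; chance gives about 1 in 20 sets. Abhd5 was at -0.84 in cHF+ROSI mouse 1, with the nearest other mouse at -0.34. The array of that mouse had the lowest weight, 0.32. Agpat2 was at -0.43 in cHF+ROSI mouse 8, with the nearest other mouse at -0.050, while Adipoq was at 0.49 in that mouse, the highest of its diet. The second probe of Agpat2 was at -0.35 there, also the lowest of its group.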

How the results depend on the processing

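No member was called between diets under any alternative, and the signs of Mgll, Dgat2 and Lpin1 in cHF+F versus cHF held in all of them. The number of probes called in cHF+F versus cHF was 3 without a brightness filter, 6 with the slide as replicate block, 12 with array weights, 1 with Adipoq as a covariate (1 also in cHF+F versus cHF+ROSI) and 0 to 2 without single mice (0 to 2 also in cHF+F versus cHF+ROSI). For the slope on Adipoq, 7 members and 6158 probes were called with median centring. The median slope of all probes was 0.13 there, relative to which Lipe and the others are to be read. With Cy5 alone 67 probes were called, of the members only Dgat2, and Lipe and Mgll were not. No member was called with the other adipocyte markers. Without slides 1 to 3 (chosen after seeing the data), 0 members and 105 probes were. Without single mice, 0 to 4 members and 90 to 214 probes were called. A stricter filter called 98 probes and the replicate block 266, of which 98 and 138 were among the 162. With the stricter filter Mgll and Dgat2 stayed called, and Lipe was not tested, as its probes were too dim for it. The replicate block ended the call of Dgat2 and changed the call of no other member; in the diet comparisons it left 0 members called. The cause of these changes was not tested.

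Signs turned only for values that were not called at first; of the turned values, the slope of Lpin1 with median centring was called. cHF+F minus cHF became 0.044 (Pnpla2, Cy5 alone), 0.017 (Abhd5, other probe) and -0.055 (Dgat1, other probe). cHF+ROSI minus cHF became 0.25 (Pnpla2, Cy5 alone), 0.031 (Lipe, other probe), 0.015 (Lpin1, another probe) and 0.018 (Lpin1, without slides 1 to 3); for Agpat2 it was -0.10 (processed signals), -0.057 (median centring), -0.22 (Cy5 alone), -0.079 (other probe) and -0.011 (without slides 1 to 3). cHF+F minus cHF+ROSI became 0.020 (Pnpla2, no background correction and processed signals), 0.016 (Pnpla2, without slides 1 to 3), 0.039 and 0.040 (Lipe, median centring and Cy5 alone), -0.018 (Abhd5, array weights), -0.037 (Abhd5, without slide 1), 0.065 (Dgat2, without slides 1 to 3) and -0.030 (Dgat1, other probe). Slopes turned to 0.098, 0.15, 0.031 and 0.013 for Abhd5 (median centring, Cy5 alone, without slide 1, without slides 1 to 3), to -0.18 and -0.018 for Pnpla2 (Cy5 alone, other markers) and, for Lpin1, to 0.23 (median centring), 0.11 (Cy5 alone), 0.011 (replicate block), 0.018 (other markers), 0.012 and 0.049 (without slide 1, without slides 1 to 3), and 0.0026, 0.0043 and 0.0023 (other probes). Without single mice the ranges that crossed 0 were -0.085 to 0.034 (Mgll) and -0.063 to 3.94e-05 (Dgat1) for cHF+ROSI minus cHF, -0.090 to 0.013 (Pnpla2) and -0.0061 to 0.12 (Abhd5) for cHF+F minus cHF+ROSI, and -0.049 to 0.0090 for the slope of Lpin1. Dim probes limit Gpam, and the methods' t-test gave 0 called probes after adjustment in each comparison.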
